A study of Mus musculus with 12 samples.

Results

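The cytosolic ribosome makes the proteins of a leukemic blast, and the RNAs of 77 genes for its own protein subunits are described here. The members were the rows of the deposited table whose symbols begin with Rpl or Rps followed by a number, or are Rplp0, Rplp1, Rplp2 or Rpsa, without the Rps6k kinases and without pseudogenes, and with a mean normalized count of at least 10 over 12 libraries. Before the minimum, 86 of the 24454 genes in the table matched. The 77 that passed are 46 proteins of the large and 31 of the small subunit, among 11476 genes tested. The minimum was met narrowly by Rpl24 at a mean of 10.3 and by Rpl38 at 10.7, and was missed by Rps28 at 9.96, Rpl23a at 9.14, Rpl36a at 8.20, Rps29 at 7.30, Rpl30 at 5.37, Rpl39l at 3.97 and Rpl32l at 0.085, while Rpl26 and Rpl10l were listed at 0 in all libraries.

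The libraries came from mouse leukemia driven by MLL-AF9, a fusion of a histone methyltransferase with a part of transcription elongation complexes. Fetal liver cells of WT mice or of mice lacking STAT3β (Δβ), the shorter splice form of the transcription factor STAT3, had been transformed with a retrovirus that also expresses the fluorescent protein Venus. They were transplanted into young adult male NSG mice, which have no T, B or NK cells of their own, so that all 4 groups carry MLL-AF9 and differ in the blasts' genotype and in the organ. Venus+ blasts were sorted from spleen (SP) and bone marrow (BM) of diseased animals, with 3 libraries for each genotype and organ, and sequenced after poly-A enrichment. Whether an SP and a BM library with equal numbers share an animal was not given in the sources used here. Values are normalized counts, which are the reads on a gene divided by 1 size factor per library.

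Ribosomal proteins are needed in mostly equal amounts for each ribosome and are stable only once they are built in. Proteins of the small subunit read the messenger RNA, those of the large subunit frame the peptidyl transferase centre and the exit tunnel, and the stalk proteins Rplp0, Rplp1 and Rplp2 bind the elongation factors. Many of these mRNAs begin with a run of pyrimidines, the 5′ terminal oligopyrimidine (TOP) tract, through which mTOR signalling and the RNA-binding protein Larp1 set their translation. In blood, loss of a single copy of a member such as Rps19 or Rps14 is known to impair red cell formation.

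Runs of this kind lie near many annotated start sites, and the annotation carries them unevenly. The sequences below run 5′ to 3′ on the strand of the gene, from 10 bases before to 20 bases from the RefSeq start on GRCm38.p6, with any C followed by at least 4 further C or T bases within 5 bases of the start in capitals. They are shown because they belong to members whose values are discussed below, the first 5 with such a run and the last 3 without. A run may begin before or after the annotated start, so this rule is wider than a tract that begins the mRNA.
Rpl27a (chr7:109519185-109519214, plus strand): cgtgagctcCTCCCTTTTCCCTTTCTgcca
Rpl13a (chr7:45128726-45128755, minus strand): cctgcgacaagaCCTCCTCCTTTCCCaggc
Rpl39 (chrX:37085203-37085232, minus strand): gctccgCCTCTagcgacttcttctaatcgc
Rps6 (chr4:86857348-86857377, minus strand): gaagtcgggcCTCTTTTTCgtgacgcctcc
Rpl22l1 (chr3:28805498-28805527, plus strand): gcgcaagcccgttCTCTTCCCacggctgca
Rpl4 (chr9:64173377-64173406, plus strand): tttcctgtgggagcagccgggtagagagga
Rps15 (chr10:80292421-80292450, plus strand): cagagctcgcgataactgcgcaagcgcagc
Rpl5 (chr5:107900518-107900547, plus strand): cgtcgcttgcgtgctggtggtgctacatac
A window was at hand for 59 members, and 29 of them (49.2%) held such a run, compared with 23.8% of the tested genes with a window, 25.4% of the mitochondrial ribosomal protein genes and 21.2% of all genes with a window. Rpl27a has the longest of the runs shown, 17 bases, and Rpl39 has 5. The run of Rpl39 begins 4 bases before the annotated start, so all of it but the last base lies upstream. Rpl4, Rps15 and Rpl5 had none within reach of the annotated start, which need not be the start used in blasts.

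Levels of the members were far from equal in these libraries. Rpl4, which lines the exit tunnel, had the highest level with a mean of 21914 over the 12 libraries and by itself made up 13.5% of the members' sum. The 5 highest members together made up 44.2% and the 20 highest 80.0%. Per kilobase of exon, the scale on which genes can be compared, Rpl4 led with 10919, followed by Rpl8 with 9740, Rplp1 with 9718 and Rps15 with 6532. The lowest were Rpl28 with 12.7, Rpl24 with 10.03, Rps13 with 8.66, Rpl34 with 6.66 and Rpl5 with 4.73, a 2308-fold range from Rpl4 to Rpl5.

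These levels cannot be read as transcript abundance. Ribosomal protein mRNAs have many processed copies in the genome, and a read that lies in more than 1 copy may be dropped or split by counting, whose handling of such reads was not given in the sources used here. Of the 50-base stretches of each member's transcripts, a median of 46.6% occurred in no other annotated gene (76 members with a transcript), and 43 members were under 50%. For 76 mitochondrial ribosomal protein genes the median was 97.2%. Among the rows matching the symbol rule, the median of the mean level was 1687 for the 13 with over 75% of unique stretches, 1140 for the 50 with 25 to 75% and 85.6 for the 21 with less. Spearman's rho between the unique share and the level per kilobase was 0.397 across the members, and 0.542 with 100-base stretches. These are correlations across genes, which are not independent. Rpl5, the lowest member, had 6.16% unique stretches and Rpl10 had 7.87%, whereas the highest, Rpl4, had 83.5%. Exceptions stood on both sides, since Rpl3l had 100% and a level per kilobase of 13.3, and Rplp1 had 40% and 9718. The comparisons below are therefore between libraries and within a gene. Reads of a member and of its copies cannot be told apart in the less unique members.

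**Figure D1:**
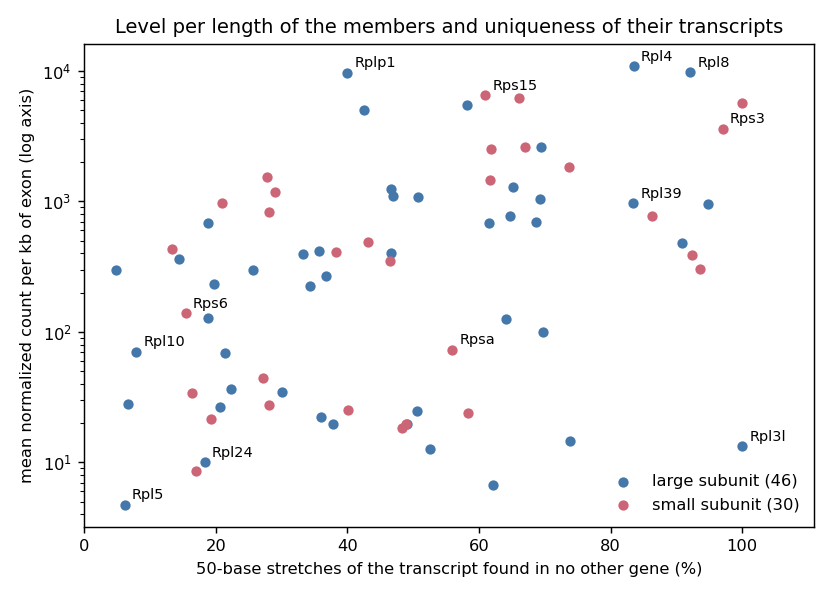
Mean normalized count per kilobase of exon over 12 libraries (log axis) against the percent of 50-base stretches of each transcript found in no other annotated gene, for 76 members, 46 of the large subunit (blue) and 30 of the small subunit (red). Members with few unique stretches such as Rpl5 (6.16%) lie mostly low and Rpl4 (83.5%) and Rpl8 lie highest, with Rpl3l (100%) as an exception.

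Library depth was 9001051 to 13859727 reads on genes. Markers of the myeloid blast were detected in each group, and 4 hemoglobin genes, which mark red cells, were listed at 0 in all libraries. So was Rpl26, which every cell uses, and near-identical copies such as those of hemoglobin may lose reads in counting, so a listed 0 is not read as absence here. The third WT SP library differed from the other WT SP libraries in its myeloid markers: Mpo, a granule enzyme, was 40587 against 5947 and 5256, and the integrin Itgam was 10941 against 26293 and 21981. By Itgam, Ptprc and Csf1r, the first and second WT SP libraries lay above all others. Itgam was 7855 to 16687 elsewhere. Ptprc was 20833 and 14695 against 5254 to 10224, and Csf1r 16616 and 8024 against 1651 to 6355. By Elane the third WT SP library lay above all others, at 72724 against 11112 to 37376. The summed endothelial and stromal markers, nearly all Pecam1, lay at 1055 to 1201 in WT SP and, with no overlap, at 1404 to 2524 in Δβ SP. The other markers of that list were low in SP and did not share this rise as a set. Cdh5 was at most 3.18 (WT) and 0.775 (Δβ), and Col1a1 at most 7.42 and 3.36. Col3a1 was at most 7.98 and 0, and Cxcl12 at most 2.28 and 3.88. The sum is therefore a reading of Pecam1 alone. The summed B cell markers, mostly Cd79b, were 284 to 405 in WT SP and 398 to 466 in Δβ SP. Among them, Cd79a was at 31.9, 26.5 and 4.06 in WT SP and at 4.65 to 9.61 in Δβ SP. The summed red pulp macrophage markers, nearly all Vcam1 and Hmox1, were 1263 to 4680 in WT SP and 994 to 2577 in Δβ SP. Hmox1 was 3925, 1402 and 314 in WT SP and 167 to 300 in Δβ SP, without overlap. Vcam1 was 699 to 1291 in WT SP and 760 to 2409 in Δβ SP, with overlap. In BM the sum was 3535 to 5975 in WT and 1387 to 2372 in Δβ, without overlap. For SP, the T and NK cell markers summed to at most 15.2 (WT) and 91.5 (Δβ). The megakaryocyte markers there summed to 67.0 to 76.4 (WT) and 36.4 to 52.3 (Δβ). Red cell markers stayed under 10 in every group. The highest T and NK cell sum of all libraries, 257, was in the first Δβ BM library, with Cd8a at 103 and Cd3d at 63.1. The other Δβ BM libraries had 3.50 and 4.14, and WT BM had at most 11.1. By the B cell, megakaryocyte, and endothelial and stromal sums, the BM groups overlapped. The precursor of ribosomal RNA, Rn45s, took 0.725%, 2.48% and 2.41% of the WT SP libraries and 0.224 to 0.430% of the Δβ SP libraries. The part of these differences in the results below was not tested, and only the share was also computed without ribosomal RNA in the total. Stat3, whose counts cover both splice forms, was 2978 to 4430 in WT SP and 2674 to 3236 in Δβ SP (log2 fold change -0.32 ± 0.16 SE, limma adjusted p = 0.375).

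Together the members took a smaller share of the WT SP than of the Δβ SP libraries. The share was 1.13%, 1.08% and 1.43% in WT SP and 1.61%, 1.78% and 1.68% in Δβ SP, so that the groups did not overlap. It was 1.55%, 1.58% and 1.31% in WT BM and 1.49%, 1.63% and 1.70% in Δβ BM, which overlapped, and the third WT SP library lay above the third WT BM library. The SP means were 1.21 ± 0.187% (SD, n = 3) for WT and 1.69 ± 0.0866% for Δβ, and the BM means 1.48 ± 0.149% for WT and 1.61 ± 0.108% for Δβ. A share has no test here because it sums over chosen genes, and in sorted bulk samples a lower level in each blast and fewer blasts of a high level cannot be told apart. The total of normalized counts was itself larger in WT SP, 10912363 to 12565636 against 10239195 to 10741816 in Δβ SP. The members' summed normalized count, which this total does not enter, was 143570 ± 11366 in WT SP and 176361 ± 7321 in Δβ SP. With ribosomal RNA and genes of the mitochondrial genome taken out of the total, the share was 1.14%, 1.11% and 1.46% in WT SP. It was then 1.61%, 1.78% and 1.68% in Δβ SP, again without overlap. The large subunit genes held 0.602 to 0.808% of the WT SP and 0.913 to 1.03% of the Δβ SP libraries, and the small subunit genes 0.477 to 0.617% and 0.694 to 0.751%.

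**Figure D2:**
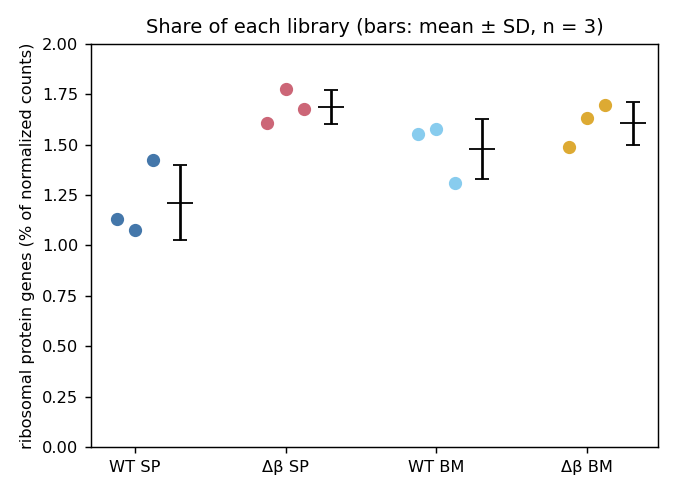
Percent of the normalized counts of each library that lay on the 77 members, with 3 libraries per group as points and the mean ± SD as bars. The WT SP libraries lie at 1.08 to 1.43% and the Δβ SP libraries at 1.61 to 1.78%, while WT BM (1.31 to 1.58%) and Δβ BM (1.49 to 1.70%) overlap.

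In SP, most members had a higher value in Δβ than in WT blasts, but none passed the test. Limma called 0 of 77 at an adjusted p under 0.05, where 0.105% of all genes tested were called (12 of 11476). Of the 77, 65 had a log2 fold change above 0, against 48.1% of all genes, and their median was 0.26 against -0.01. At an unadjusted p under 0.05, 26 members were higher and 1 was lower, which is 33.8% and 1.30% of the members beside 5.93% and 8.96% of all genes. The 3 Δβ libraries lay above the 3 WT libraries in 34 members (44.2% beside 7.92% of all genes) and below them in 1 (1.30% beside 9.37%). The differences were of similar size in both subunits, with medians of 0.28 for the large and 0.23 for the small one.

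The difference with the smallest p was in the stalk protein gene Rplp1. Its normalized count was 3676, 3597 and 4064 in WT SP and 5366, 5849 and 5272 in Δβ SP, and thus without overlap. The log2 fold change was 0.54 ± 0.11 (SE), with an adjusted p of 0.123, the smallest of any member. Rpl39, a short protein in the wall of the exit tunnel, was at 1157, 1024 and 1145 in WT SP and at 1746, 1629 and 1654 in Δβ SP. Its log2 fold change was 0.60 ± 0.14 (adjusted p = 0.166), and the groups did not overlap. Rpl27a, a core protein of the large subunit, was at 301, 258 and 292 in WT SP and at 403, 476 and 386 in Δβ SP. Its log2 fold change was 0.57 ± 0.13 (adjusted p = 0.168), again without overlap.

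Further members of high level had smaller differences in the same direction. Rps15, a protein of the small subunit head, was at 3378, 3271 and 3677 in WT SP and at 4441, 5040 and 4250 in Δβ SP (log2 fold change 0.41 ± 0.11). Rpl32 was at 2009, 1961 and 2259 and at 2764, 2733 and 2617 (0.38 ± 0.11). Rpl22, a member whose gene is lost in some T cell leukemias, was at 2279, 2079 and 2676 and at 3150, 3413 and 2950 (0.44 ± 0.13). In each of these the Δβ libraries lay above the WT libraries, and the adjusted p was 0.218.

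Members with a lower value in Δβ SP had low levels, with means of 10.3 (Rpl24) to 145 (Rpl10) over the 12 libraries. Rps27 was the only member whose groups lay apart with Δβ lower, at 27.4, 22.3 and 22.3 in WT SP and at 21.7, 16.8 and 11.7 in Δβ SP (log2 fold change -0.53 ± 0.39, adjusted p = 0.512). Rpl10, which joins the large subunit late in its assembly, was at 127, 171 and 215 in WT SP and at 97.7, 177 and 112 in Δβ SP, with overlap (-0.42 ± 0.28). All 39 members with a mean of at least 1000 had a log2 fold change above 0, from 0.15 to 0.60 with a median of 0.29. Of these, 26 were higher without overlap (66.7% beside 7.92% of all genes, which include genes of lower level). Of the 52 with a mean of at least 100, Rpl10 alone had a value below 0. Of the 25 under 100, 14 were above 0. In this class 2 were higher without overlap, Rpl12 and Rpl21, which is 8% beside 7.92% of all genes. Rpl21 was at 42.2, 28.6 and 38.6 in WT SP and at 58.1, 42.6 and 65.1 in Δβ SP (0.58 ± 0.27). The plot of deviations by library shows that the first and second WT SP libraries held the lowest value of 42 of these 52 members.

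**Figure D3:**
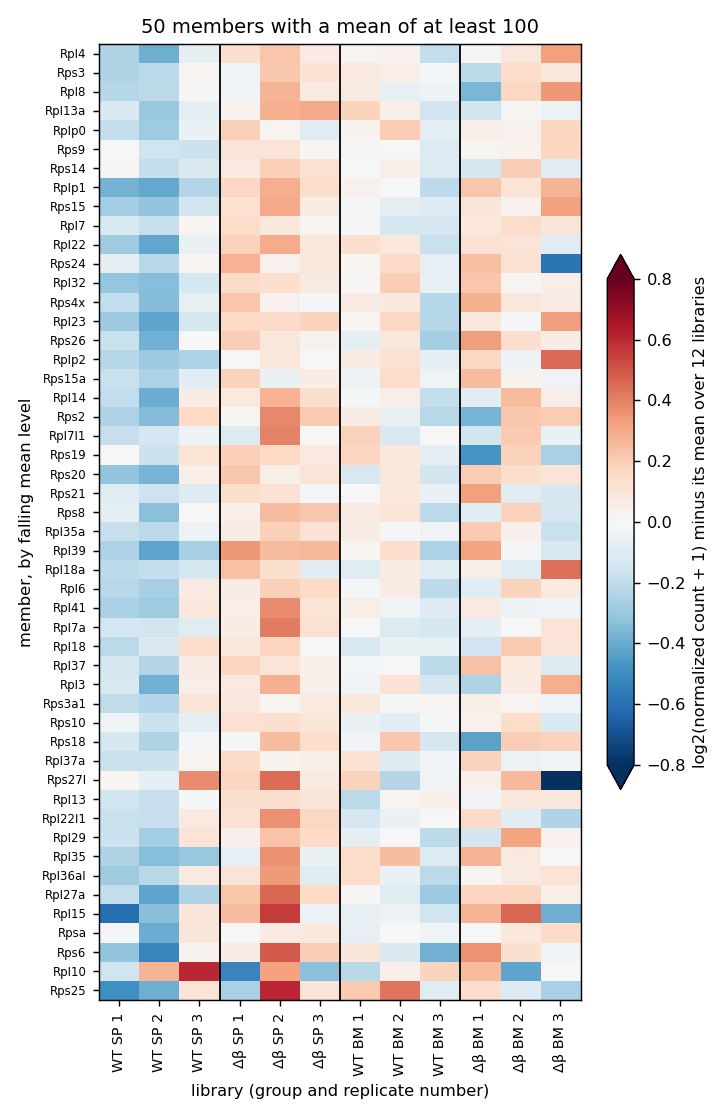
Difference of log2(normalized count + 1) from its mean over the 12 libraries for 50 of the 52 members with a mean of at least 100 (rows, by falling level) in each library (columns, by group and replicate number), where red is above and blue below the mean. The columns of WT SP 1 and 2 are blue in most rows and hold the lowest value of 42 of the 52 members, WT SP 3 is near 0 or mixed, and the Δβ SP columns are mostly red.

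Calls in SP depended on the third WT SP library and on the tool. Without that library, limma called 15 of 77 members, 14 higher and Rpl3l lower, beside 16.4% of all genes (1884). Calls over all genes thus rose as well, from 12 with all libraries, so the rise was not particular to the members. The 14 higher members were Rplp1, Rps15, Rpl22, Rpl32, Rpl23, Rpl14, Rps20, Rpl39, Rpl6, Rpl41, Rps3a1, Rpl27a, Rps6 and Rpl31. Their group then held 2 WT libraries against 3, and 58 members were higher without overlap (75.3% beside 24.9% of all genes). DESeq2 on the recovered reads of all 12 libraries called 9 members higher and Rpl3l lower, beside 4.19% of all genes (481), and among the 9 were Rplp1, Rps15, Rpl22, Rpl32, Rpl23, Rpl39 and Rpl27a. The quasi-likelihood test of edgeR on the same reads called 0, with 27 members at an unadjusted p under 0.05, 25 higher and 2 lower (35.1% beside 17.0% of all genes). In the limma test 27 members passed an unadjusted p of 0.05 in either direction, beside 14.9% of all genes. They became 14 without the first WT SP library (18.2% beside 8.81%) and 9 without the second (11.7% beside 8.91%). They became 36 without the third (46.8% beside 34.6%), and 12 without the second Δβ SP library (15.6% beside 8.17%). Among the 33 members with over 50% of unique 50-base stretches, limma called 0, 30 were above 0 and the median was 0.27.

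Members known for roles of their own in the ribosome or outside it were within this range. Rplp0 and Rplp2, the partners of Rplp1 in the stalk, had SP log2 fold changes of 0.22 ± 0.13 and 0.29 ± 0.12. Rplp2 was at 1827, 1750 and 1793 in WT SP and at 2142, 2281 and 2142 in Δβ SP, without overlap, and Rplp0 overlapped. Rps6, the target of the S6 kinases downstream of mTOR, was at 173, 149 and 220 in WT SP and at 225, 304 and 248 in Δβ SP (0.52 ± 0.20, adjusted p = 0.283). Rpsa, also known as a laminin receptor, was at 229, 175 and 247 and at 231, 241 and 244 (0.15 ± 0.14). Rps14 and Rps19, the members tied to inherited or acquired anemia, had 0.23 ± 0.12 and 0.16 ± 0.16, and Rps14 did not overlap. Rpl3, at the peptidyl transferase centre, had 0.29 ± 0.16 with overlap, Rps4x on the X chromosome 0.29 ± 0.13 without, and Rpl13a, which is also part of a complex that silences inflammatory mRNAs, 0.37 ± 0.14 without. Rpl5 and Rpl11, which bind Mdm2 when ribosome assembly fails, had 13.2 to 15.9 and 26.5 to 63.9 in WT SP, and 13.4 to 22.4 and 48.8 to 85.1 in Δβ SP, with overlap. Rps27a, made as a fusion with ubiquitin, was at 54.1 to 68.0 and 48.1 to 77.9, also with overlap.

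**Figure D4:**
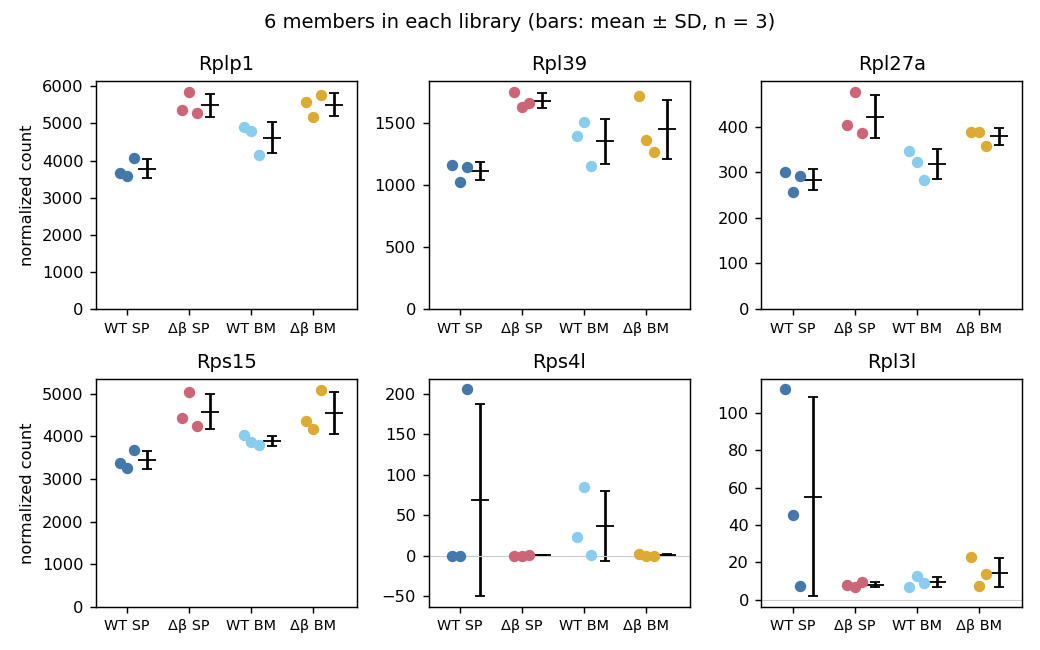
Normalized counts of 6 members in each of the 12 libraries by group, with points as libraries and bars as mean ± SD (n = 3). Rplp1, Rpl39, Rpl27a and Rps15 lie higher in Δβ SP than in WT SP without overlap, whereas Rps4l (206) is high in 1 WT SP library and Rpl3l (113 and 45.6) in 2.

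In BM the same comparison gave smaller values. Limma called 0 of 77 members, beside 0.0697% of all genes (8 of 11476). Of the members, 54 were above 0, against 45.3% of all genes, and the median was 0.06 against -0.02 on the log2 scale. Only Rplp1 passed an unadjusted p of 0.05 (1.30% of the members beside 1.25% of all genes higher, and 0 members beside 1.33% lower). It was at 4904, 4802 and 4143 in WT BM and at 5576, 5168 and 5773 in Δβ BM, without overlap (0.26 ± 0.11, adjusted p = 0.99997). Δβ lay above WT without overlap in 6 members (7.79% beside 3.50% of all genes), and below it in 0 (4.13% of all genes). Rpl27a was among them, at 347, 323 and 282 in WT BM and at 389, 389 and 357 in Δβ BM (0.26 ± 0.13). So was Rps15, at 4027, 3867 and 3798 in WT BM and at 4366, 4169 and 5100 in Δβ BM (0.22 ± 0.11). The median became 0.03 without the third WT BM library, 0.11 without the second, and 0.10 without the first Δβ BM library. DESeq2 and edgeR also called 0 in BM. Δβ was above WT without overlap in both organs in 5 members, Rps9, Rplp1, Rps15, Rpl7 and Rpl27a, which is 6.49% of the members beside 0.863% of all genes. The SP and BM comparisons share no library, but they are not independent for Δβ, where SP and BM libraries of equal number deviated together (Pearson r over genes of 0.608 to 0.664).

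**Figure D5:**
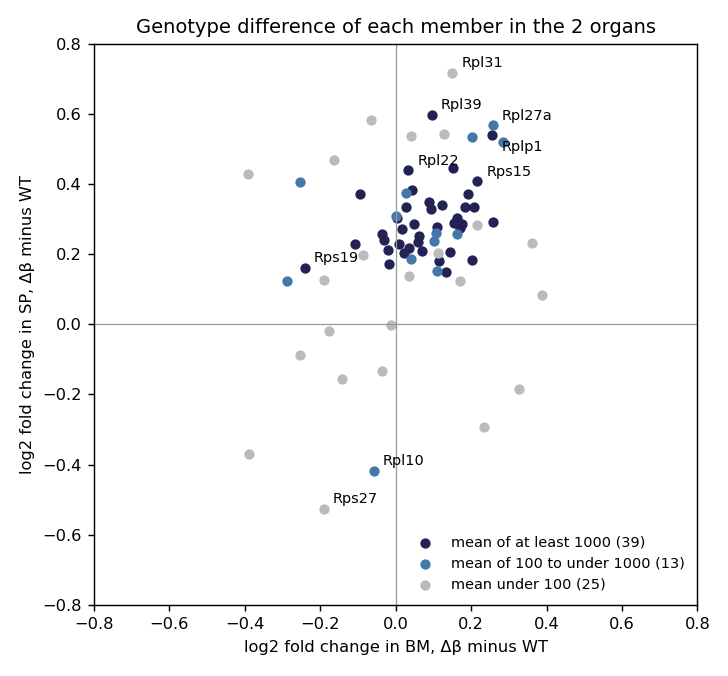
Log2 fold change of Δβ minus WT in BM (horizontal) and SP (vertical) for 75 of the 77 members, in 3 classes of mean normalized count. Rpl3l (-1.97 in SP, 0.46 in BM) and Rps4l (-2.22 and -3.47) lie beyond the axes. All 39 members with a mean of at least 1000 lie above 0 in SP and 32 of them lie right of 0 in BM.

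The SP difference exceeded the BM difference in 66 of the 77 members (5735 of all 11476 genes), with a median excess of 0.18 on the log2 scale against 0.00 over all genes. The test of that excess called 0 members and 0.00% of all genes. At an unadjusted p under 0.05, 4 members had a larger difference in SP (5.19% beside 1.25% of all genes) and 0 a smaller one (1.95% of all genes). They were Rpl39 with an excess of 0.50 ± 0.19, Rpl13a with 0.46 ± 0.19, Rpl22 with 0.41 ± 0.18 and Rpl32 with 0.34 ± 0.15, each at an adjusted p of 0.926. The median excess became 0.12 without the second WT SP library. The genotype difference was therefore not shown to differ between the organs for any member.

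Between organs, the members of WT blasts were mostly lower in SP and those of Δβ blasts mostly higher in SP, and these comparisons use the same libraries as those above. In WT, limma called 0 of 77, with 0.00% of all genes called. The SP value was the lower one in 61 members and the higher one in 16 (5737 of all genes). The median was -0.13 on the log2 scale (SP minus BM) against 0.00 over all genes. SP lay below BM without overlap in 12 (15.6% beside 5.80% of all genes) and above it in Rpl24 (1.30% beside 5.66%). At an unadjusted p under 0.05, 4 were lower (3.91% of all genes), Rpl32 (-0.31 ± 0.11), Rplp1 (-0.29 ± 0.11), Rpl35 (-0.39 ± 0.15) and Rplp2 (-0.29 ± 0.12), and Rpl3l was higher (4.36% of all genes). Rpl35 was at 309, 288 and 296 in WT SP and at 404, 433 and 338 in WT BM. The largest gaps without overlap were in members of few reads: Rpl21 was at 28.6 to 42.2 in SP and 44.3 to 60.8 in BM (-0.55 ± 0.27), Rpl38, known for a role in translating homeobox mRNAs, at 7.98 to 8.48 and 10.1 to 17.1 (-0.54 ± 0.47), and Rpl5 at 13.2 to 15.9 and 17.1 to 27.0 (-0.49 ± 0.33). Rpl24, a protein at the joint of the subunits, was at 10.6 to 15.2 in SP and 5.95 to 9.06 in BM (0.66 ± 0.38). The median became -0.05 without the second WT SP library and -0.21 without the third. Without the latter, the test called Rpl3l alone among the members, beside 5.21% of all genes.

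In Δβ blasts 0 members were called, with 0.00% of all genes called and 0 members at an unadjusted p under 0.05 (0.654% of all genes higher and 1.12% lower). This limma fit did not pair SP and BM libraries of equal number. With them paired in a limma fit of these 2 groups alone, 0 members were called. There, 2 members passed an unadjusted p of 0.05 (2.60% beside 10.4% of all genes). The SP value was the higher one in 55 members (50.4% of all genes), with a median of 0.09 (0.00 over all genes), which became 0.03 without the second Δβ SP library and 0.04 without the first Δβ BM library. Without overlap 2 were higher in SP (2.60% beside 2.92% of all genes) and 0 lower (4.51%). Rpl13a was at 10685, 12769 and 12960 in Δβ SP and at 9442, 10549 and 10155 in Δβ BM (0.27 ± 0.14). Rpl13 was at 667, 661 and 646 and at 597, 641 and 640, with a narrow gap (0.07 ± 0.10).

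Several members have a close relative in the genome with its own row, and the pairs differed in which gene carried the reads. Rpl22 was 5.38 to 7.55 times its relative Rpl22l1 in each library. Rpl22l1 was at 390, 387 and 466 in WT SP and at 477, 568 and 495 in Δβ SP (0.31 ± 0.13), the same direction as Rpl22. Rpl7 was 1.61 to 2.40 times Rpl7l1. In contrast, Rps27 had 11 to 34 reads a library where Rps27l, a relative that the tumor suppressor Trp53 is known to induce, had 252 to 894, and Rpl36a had 4 to 12 where Rpl36al had 261 to 503. Rps27 and Rpl36a had unique shares of 48.9% and 14.5%, and Rps27l and Rpl36al 86.3% and 36.7%. Rps27l was at 584 to 798 (WT) and 645 to 836 (Δβ) in SP. In BM it was at 523 to 699 in WT and at 631, 735 and 261 in Δβ, so that the third Δβ BM library was the lowest of the 12. Rpl39l was at 0 to 19 reads and Rpl10l at 0 in all libraries.

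The members that varied most within groups were relatives of this kind. Rps4l, a copy of Rps4x, was at 0, 0 and 206 in WT SP, at 23.8, 85.6 and 1.01 in WT BM, and at no more than 2.17 in any Δβ library. It was thus high in 1 of 3 WT SP and 2 of 3 WT BM libraries and passed the minimum mean through them, and its residual SD was 2.68 on the log2 scale, the largest of all members. Rpl3l, a relative of Rpl3 known from striated muscle, was at 113, 45.6 and 7.10 in WT SP and at 6.72 to 22.8 in the other groups, with a residual SD of 1.07. Its value was high in the first and second WT SP libraries, the opposite of the library in which Rps4l was high. The log2 fold change in SP was -1.97 ± 0.80 for Rpl3l and -2.22 ± 1.95 for Rps4l, with overlap in both. Next in spread came Rpl34 with 0.58, Rps13 with 0.56 and Rpl27 with 0.48, which were all at a mean under 50. Rps4x itself had 1832 to 3728 reads a library.

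Across the 12 libraries, most members in each class of level varied with the mean of the others. The Pearson r between a member and the mean of the others, on the log2 scale, had a median of 0.627 in the 39 members with a mean of at least 1000 (0.263 to 0.870), 0.607 in the 13 from 100 to under 1000 and 0.383 in the 25 below, of which 20 were above 0. The lowest were Rpl3l at -0.72 and Rps27 at -0.53, and the highest was Rps7 at 0.895, a member with a mean of 50.9. After the group means were removed, the medians were 0.545, 0.464 and 0.386. Within a library the members share its depth, size factor and base composition, so these values describe the data and were not tested. The same r was not computed for other genes.

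Other genes of translation were read for comparison, also without a call. Of the ribosomal proteins with other names, Rack1, a signalling scaffold on the small subunit, was at 14611, 12955 and 15437 in WT SP and at 17756, 17003 and 15747 in Δβ SP, without overlap (0.23 ± 0.13). Fau, which is made as a fusion with a ubiquitin-like protein, was at 22.4 to 40.6 in SP, with overlap. Of 20 further mRNAs known for a TOP tract, 18 were above 0 in SP with a median of 0.21. By an unadjusted limma p under 0.05, 4 were higher (20% beside 5.93% of all genes) and 0 lower (beside 8.96%). Among the 20 were the elongation factors Eef1a1 (0.27 ± 0.15) and Eef2 (0.15 ± 0.17). Of 23 genes of mTOR signalling and of the control of these mRNAs, 12 were above 0 with a median of 0.01. Larp1 was at 3086, 2758 and 3464 in WT SP and at 4088, 4863 and 3415 in Δβ SP (0.40 ± 0.18), and Myc, which drives ribosome production, at 782, 805 and 1538 and at 886, 1546 and 1440 (0.34 ± 0.34), with overlap in both. Of 18 chaperones and sensors of free ribosomal proteins, 13 were above 0 with a median of 0.17.

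The ribosome's other sources of parts gave the same counts of 0 calls. All 44 tested genes of nucleolar ribosome assembly were above 0 in SP (median 0.39), 9 of them at an unadjusted p under 0.05 (20.5% beside 5.93% of all genes). Of 76 mitochondrial ribosomal protein genes, which serve a separate ribosome, 64 were above 0 with a median of 0.19, 4 of them at an unadjusted p under 0.05 (5.26% beside 33.8% of the cytosolic members and 5.93% of all genes). In BM the medians were 0.01 for the nucleolar and 0.06 for the mitochondrial list. Limma called 0 genes of each of these lists in each comparison, and the differences between lists were not tested.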

How the data were processed

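Poly-A enriched RNA of sorted Venus+ blasts was sequenced in 12 libraries, with groups taken from the labelled genotype and organ. Each deposited value is a signal that the authors made by dividing a gene's read count by the library's size factor. STAR, featureCounts and DESeq2 on GRCm38 (mm10) are named in the submitters' processing notes, without versions. Read length, strand and the handling of reads with several matches were not given in the sources used here. All nonzero values were whole multiples of a step (100%, tolerance 0.001 reads), from which whole reads were recovered. The table's 6 further columns match no label and were not used.

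Members and gene lists were chosen with earlier results of these data known. Genes with a mean of at least 10 entered limma 3.58.1 (R 4.3.3; lmFit with 1 mean per group, then eBayes with a trend) on log2(normalized count + 1), so fold changes of low genes are understated. P-values were adjusted by Benjamini-Hochberg over 11476 genes, with a threshold of 0.05. The smallest two-sided permutation p of 3 against 3 is 0.1. The labels do not say that the 3 libraries of a group are separate animals, so p-values measure the spread between libraries, which may be technical. Recovered reads were also tested with edgeR 4.0.16 (quasi-likelihood) and DESeq2 1.42.0. The fit was tested on simulated data. Members named are those with the largest differences without overlap, the highest and lowest levels per exon length and the largest residual SD, with fixed members of known function and paralogs, some of which are not reported here, and Rps15, Rpl22 and Rpl32 were added after their values were seen. Intervals and floors would cover counting error only. Transcript uniqueness and exon length came from GENCODE M21, matched by Entrez number and symbol for 77 of 77 members, and start sequences from RefSeq.

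Deviations of libraries with the same number correlated in the Δβ SP and BM pairs (Pearson r over genes 0.664, 0.608 and 0.634). They did not in the other comparisons (-0.24 to 0.20). The main fit used no pairing in any comparison. Equal numbers were paired only in the replicate block settings given below.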

Additional observations from a re-analysis of the deposited data

How the results depend on the processing

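Settings tried were the pseudocount (0.25 and 4), the minimum mean (none above 0, and 50), 3 rescalings, eBayes without trend, edgeR, DESeq2, a replicate block, the 2 groups alone, each library left out, and, chosen after seeing the data, the members with over 50% unique stretches and the block within the 2 groups compared. In SP, the number of members called moved from 0 to 10 with DESeq2 and ranged from 0 to 15 over the libraries left out, with 15 without the third WT SP library. The organ comparison in WT ranged from 0 to 1, and the other comparisons kept 0 calls. The median log2 fold change in SP stayed above 0, from 0.20 to 0.32 over the libraries left out and 0.37 after quantile normalization. Rps4l in SP ranged from -3.50 to 0.35 over the libraries left out, and turned from -2.22 to 0.35 without the third WT SP library. The share was also taken without ribosomal RNA and genes of the mitochondrial genome in the total, as given above, and without Rpl4. Without Rpl4 the share was 1.06% in SP and 1.28% in BM for WT, and 1.46% and 1.38% for Δβ. The replicate block called 0 members in each of the 5 comparisons. In SP it left 20 members at an unadjusted p under 0.05 in the fit of all libraries (26.0% beside 16.0% of all genes). In the fit of the 2 groups alone it left 5 (6.49% beside 9.70%), against 14 without the block (18.2% beside 11.0%). There the block joins WT and Δβ libraries by number only, and these did not deviate together (Pearson r -0.17 to 0.20). The cause of the drop was not tested. For the paired Δβ organ comparison the block within the 2 groups called 0, with 2 members at an unadjusted p under 0.05 (2.60% beside 10.4% of all genes). At this depth members of 10 to 50 normalized counts rest on few reads per library.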

Other observations

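Rows that the symbol rule left out carried few reads of ribosomal protein copies. Rpl14-ps1 was the exception among the pseudogene rows, at 259, 203 and 286 in WT SP, 310, 345 and 353 in Δβ SP, 268, 363 and 276 in WT BM, and 278, 347 and 294 in Δβ BM, a mean of 299 where Rpl14 itself had 1777. In SP its groups did not overlap, in the same direction as Rpl14. Rpl37rt, a retrotransposed copy, had a mean of 30.4 and Rps19-ps3 of 5.87, and Rps27rt, Rpl34-ps1 and Rplp2-ps1 had no reads in any library.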
